A study of Arabidopsis thaliana with 8 samples.

Results

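The salt response of lsm8-1 was taken from 2 of the 8 RNA-seq libraries of the series, lsm8-1 on growth medium and lsm8-1 after 10 h with NaCl. The series is about how the LSM2-8 complex regulates the spliceosome under different environments, here cold and salt. lsm8-1 is a mutant of LSM8 in the Col-0 background of Arabidopsis thaliana, and Col-0 is the wild type. Plants of both genotypes were 2 weeks old, grew in long days under 90 µmol m-2 s-1 on plates of 0.5X GM medium (GM), and either stayed there or were moved for 10 h to plates with 150 mM NaCl. Each genotype and condition had 1 library, the tissue is labelled leaves, and total RNA was used. The labels do not say how many plants went into a library, nor if libraries were stranded. With 1 library a side there was no replicate spread to hold a difference against, and no test was made. Values are sizes, given with exact Clopper-Pearson 95% intervals that cover counting error only.

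Salt in the root zone lowers the water available to the plant and brings in sodium. Both raise abscisic acid (ABA), which binds PYR/PYL receptors; the bound receptors hold back clade A protein phosphatases 2C, and freed SnRK2 kinases then switch on ABF transcription factors that bind ABRE promoter elements. Protective LEA proteins and dehydrins, compatible solutes, ion carriers and aquaporins are known targets of this response, and a part of it runs without ABA through DREB factors and the DRE element. LSM8 is the subunit that sets the nuclear LSM2-8 ring apart from the cytoplasmic LSM1-7 ring; the nuclear ring binds U6, an RNA at the heart of the spliceosome.

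The total count was 33.6 M reads on GM and 34.0 M with NaCl in lsm8-1, and 33.4 M and 34.0 M in Col-0. Values below are counts per M (mega) reads (CPM) after TMM scaling over these 4 libraries. The targeted gene checked the labels: LSM8 had 51 reads on GM and 29 with NaCl in lsm8-1, against 269 and 208 in Col-0. It stayed under 5 CPM in both lsm8-1 libraries. All 21 genes of light harvesting and the RuBisCO small subunit, which mark leaf tissue, were compared, and no flower marker reached 5 CPM. Root markers were present despite the label: all 8 reached 5 CPM in lsm8-1, and their summed level was 4787 CPM on GM and 2218 CPM with NaCl in lsm8-1, and 7386 and 2865 CPM in Col-0. The sum rested mostly on BGLU23, a beta-glucosidase of endoplasmic reticulum bodies, at 4466 CPM on GM and 2007 CPM with NaCl in lsm8-1. Fewer root cells and less RNA per root cell cannot be told apart in such samples, and the part of the root share in the results below was not tested.

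A gene was compared when it reached 5 CPM in at least 1 of the 2 lsm8-1 libraries, and 14686 genes did. Of these, 1574 were at least 2-fold higher with NaCl (10.7%) and 1071 at least 2-fold lower (7.29%), on the scale log2 of CPM + 1, which understates changes of low genes. The counting interval of the ratio excluded 1 for all 2645 of them, but at this depth the minimum level and the 2-fold threshold fix that outcome in advance. The threshold cut through a dense region: 160 genes lay between log2 1 and 1.1 and 205 between 0.9 and 1, while 249 lay between -1.1 and -1 and 287 between -1 and -0.9. The higher side reached further. At 4-fold or more, 592 genes were higher (4.03%) and 127 lower (0.865%), and at 8-fold or more 224 were higher and 14 lower. The higher genes took 3.74% of all reads of lsm8-1 on GM and 14.2% with NaCl, and the lower genes 16.6% and 6.30%. The median over all genes compared was -0.01. Counts of called genes in the lists below stand against these shares over all genes, 10.7% higher and 7.29% lower. The lists were chosen with earlier results of these data known. A gene low in 1 library could be compared through the other alone, so such counts hold no support of their own for a direction.

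**Figure D1:**
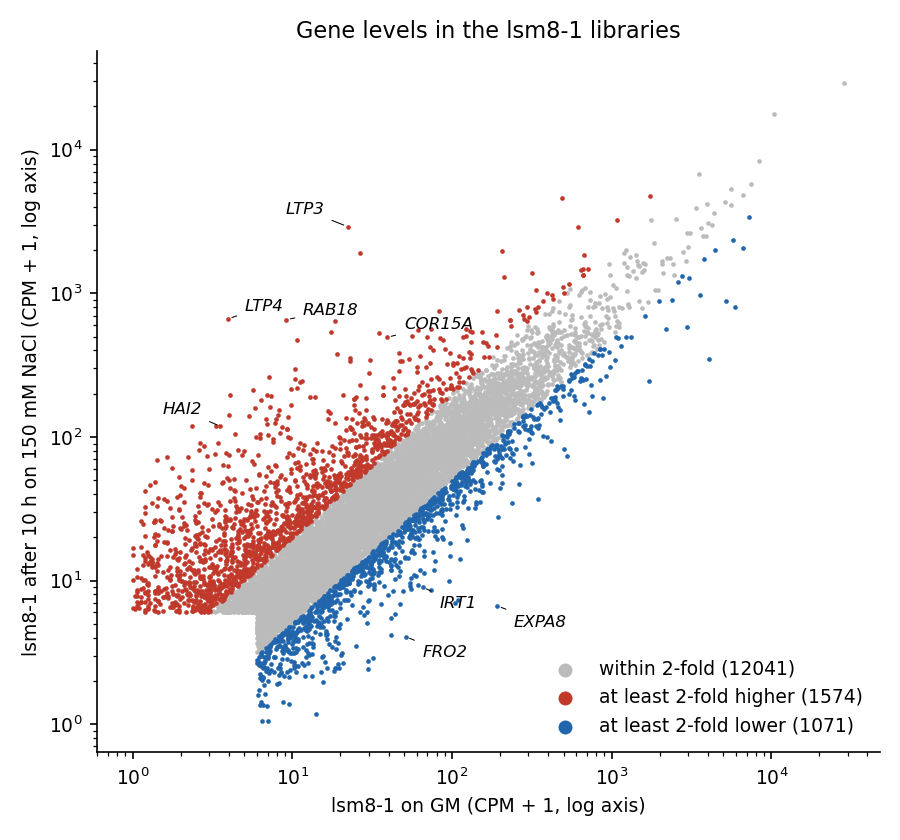
Each point is 1 of the 14686 genes compared, with its level in the lsm8-1 library on GM (x axis) and after 10 h on 150 mM NaCl (y axis), both as CPM + 1 on log axes. Red points are the 1574 genes at least 2-fold higher, blue the 1071 at least 2-fold lower and grey the 12041 within 2-fold; the red cloud reaches further from the grey band than the blue one.

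The core of the ABA pathway was first described by its hormone, receptors and phosphatases. NCED3, which makes the rate-limiting cut in ABA synthesis, stood at 12.9 CPM on GM and 188 CPM with NaCl in lsm8-1, 14.6-fold (13.2 to 16.2) higher, and at 6.09 and 282 CPM in Col-0. CYP707A1, an ABA hydroxylase that breaks the hormone down, stood at 1.62 CPM on GM and 9.75 CPM with NaCl in lsm8-1, and BGLU18, which frees ABA from its glucose ester, at 3.72 and 9.57 CPM. Those were the 3 of 6 compared genes of ABA synthesis and breakdown that were at least 2-fold higher, and ABA1, ABA2 and ABA3 of the later steps of synthesis lay within 2-fold (log2 0.10 to 0.49). Of 8 compared PYR/PYL receptors none was 2-fold higher, 2 were lower and 6 lay within 2-fold. The lower ones were PYL4, at 85.0 CPM on GM and 21.9 CPM with NaCl in lsm8-1 and 132 and 18.1 CPM in Col-0, and PYL6 at 7.12 and 1.47 CPM in lsm8-1 and 19.5 and 1.08 CPM in Col-0. PYL8, PYL1, PYR1 and PYL5 lay below 0 within 2-fold, at log2 -0.99, -0.97, -0.84 and -0.54, and PYL7 and PYL9 lay above 0 at 0.10 and 0.22. The median of the receptors was -0.90 in lsm8-1 and -1.38 in Col-0, where 5 of 8 were lower; with no minimum level, over more of the listed receptors, the median in lsm8-1 was -0.18.

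All 8 compared clade A phosphatases, the negative regulators of ABA signalling, were at least 2-fold higher with NaCl in lsm8-1. Members low on GM, such as HAI3, were compared through the NaCl library alone, so the count holds no support of its own for the direction. HAI2 (AT1G07430) stood at 2.54 CPM on GM and 117 CPM with NaCl in lsm8-1 and at 0.812 and 147 CPM in Col-0, a ratio of 46.2-fold (37.0 to 58.4) in lsm8-1. HAI1 stood at 5.94 and 195 CPM in lsm8-1 and at 2.38 and 369.6 CPM in Col-0, and HAI3 at 0.953 and 51.6 CPM in lsm8-1 and at 0.232 and 107 CPM in Col-0. The highly ABA-induced phosphatases thus had low levels on GM in both genotypes. PP2CA, ABI2, ABI1, HAB1 and HAB2 were less far apart, with log2 ratios of 2.54, 2.299, 2.01, 1.56 and 1.096. In Col-0 the ratio was larger for each of the 8 phosphatases, with a median of 3.25 against 2.42 in lsm8-1, a difference that was not tested. Over the phosphatases with 1 transcript model alone the median in lsm8-1 was 3.65. Among SnRK2 kinases and ABF/ABI factors, 5 of 13 compared genes were higher and none lower. These were SNRK2.7 and OST1, a kinase that closes stomata, with log2 2.28 and 1.497, and the bZIP factors ABF2, ABF3 and ABI5 with 2.04, 1.82 and 1.27. SNRK2.2 and SNRK2.3, the other main ABA-activated kinases, lay within 2-fold at 0.43 and 0.38.

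The 250 bases before the annotated start of a few genes are shown because the response is known to run through short promoter elements. They were read from the RefSeq genome and annotation TAIR10.1, 5′ to 3′ on the strand of the gene. Capitals mark ACGTG, the core of the ABRE, and CCGAC, the core of the DRE, on either strand (CACGT and GTCGG on the other). RAB18 (chr5:26519448-26519697, minus strand), RD29B (chr5:21236771-21237020, plus strand), RD29A (chr5:21240467-21240716, plus strand) and LEA4-5 (chr5:2090431-2090680, minus strand) encode LEA-type or related protective proteins, HAI2 (chr1:2282829-2283078, minus strand) is the phosphatase above, and EXPA8 (chr2:16950706-16950955, minus strand), a wall-loosening expansin, had the lowest log2 ratio of all genes compared.
RAB18: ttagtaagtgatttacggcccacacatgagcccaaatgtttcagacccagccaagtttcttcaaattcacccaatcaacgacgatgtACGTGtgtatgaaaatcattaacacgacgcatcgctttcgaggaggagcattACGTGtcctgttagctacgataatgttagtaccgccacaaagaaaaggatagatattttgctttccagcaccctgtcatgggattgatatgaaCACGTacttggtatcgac
RD29B: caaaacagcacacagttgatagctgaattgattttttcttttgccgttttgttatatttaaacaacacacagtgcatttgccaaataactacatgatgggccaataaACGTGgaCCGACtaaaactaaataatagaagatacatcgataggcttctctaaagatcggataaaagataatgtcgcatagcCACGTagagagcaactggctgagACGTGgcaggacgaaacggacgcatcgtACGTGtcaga
RD29A: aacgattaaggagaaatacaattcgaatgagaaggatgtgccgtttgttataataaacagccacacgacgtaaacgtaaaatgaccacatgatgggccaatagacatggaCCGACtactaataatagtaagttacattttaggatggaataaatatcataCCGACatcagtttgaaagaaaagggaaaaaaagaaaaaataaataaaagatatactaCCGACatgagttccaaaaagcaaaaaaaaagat
LEA4-5: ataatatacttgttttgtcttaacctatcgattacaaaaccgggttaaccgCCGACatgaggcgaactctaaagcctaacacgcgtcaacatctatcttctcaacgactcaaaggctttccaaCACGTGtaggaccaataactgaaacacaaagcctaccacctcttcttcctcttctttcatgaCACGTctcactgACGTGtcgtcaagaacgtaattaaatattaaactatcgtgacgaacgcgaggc
HAI2: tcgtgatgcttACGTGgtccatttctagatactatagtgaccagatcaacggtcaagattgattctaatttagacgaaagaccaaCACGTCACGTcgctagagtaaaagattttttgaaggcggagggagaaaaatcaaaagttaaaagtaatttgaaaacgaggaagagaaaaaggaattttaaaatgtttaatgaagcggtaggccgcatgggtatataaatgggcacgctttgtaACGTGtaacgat
EXPA8: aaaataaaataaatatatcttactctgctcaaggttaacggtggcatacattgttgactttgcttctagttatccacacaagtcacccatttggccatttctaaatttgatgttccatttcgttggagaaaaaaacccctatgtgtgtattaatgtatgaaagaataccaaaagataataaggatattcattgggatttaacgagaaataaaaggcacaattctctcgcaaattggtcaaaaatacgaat
RAB18 held 3 matches of ACGTG and RD29B, LEA4-5 and HAI2 held 4 each, while RD29A held 3 matches of CCGAC and none of ACGTG in this window. In LEA4-5 the palindrome CACGTG was counted on both strands, as overlapping matches. RD29B and LEA4-5 also held 1 match of CCGAC each, and EXPA8 held neither. Over the 14622 compared genes with such a window, 23.9% held ACGTG on either strand. The share was 36.6% among the genes at least 2-fold higher, 41.9% at 4-fold and 48.7% at 8-fold, against 22.2% among those at least 2-fold lower and 18.1% at 4-fold lower. The longer form ACGTGNC, whose matches are all also matches of ACGTG, was held by 9.81% of all windows and by 19.3% of those of genes 4-fold higher. CCGAC was held by 13.2% of all windows, by 16.7% of those of genes 4-fold higher and by 10.2% of those of genes 4-fold lower. The G-box CACGTG, which contains ACGTG, was held by 7.52% of all windows and by 15.2% of those of genes 4-fold higher. TTGACN, a part of the W-box element, was held by 45.0% of all windows. Its share was 53.6% at 2-fold higher, 59.6% at 4-fold and 62.5% at 8-fold, so a rise was not particular to ACGTG. By list, 14 of 22 windows of LEA, dehydrin and COR genes, 5 of 8 of the phosphatases and 13 of 22 of stress transcription factors held ACGTG. So did 11 of 18 windows of iron genes, most of which were lower with NaCl, and 1 of 16 of aquaporins. A match is a description of letters and not a binding site or a cause.

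LEA proteins, dehydrins and cold-regulated (COR) proteins shield membranes and proteins when cells lose water. Of 24 listed genes 22 were compared, and 20 of these were at least 2-fold higher with NaCl in lsm8-1 and none lower, with a median of 3.25. The summed level of the list was 2338 CPM on GM and 16371 CPM with NaCl in lsm8-1. A large part of that sum came from listed genes of other kinds. RD22, a BURP domain protein, stood at 487 and 4578 CPM in lsm8-1, and LTP3, a lipid transfer protein, at 21.2 and 2915 CPM. Genes low on GM reach the minimum only through the NaCl library, so that such counts hold no support of their own for the direction. RAB18 (AT5G66400), a dehydrin, stood at 8.17 CPM on GM and 655 CPM with NaCl in lsm8-1, 80.3-fold (71.0 to 91.1) higher, and at 4.82 and 1165 CPM in Col-0. LEA4-5 (AT5G06760) stood at 6.13 and 262 CPM in lsm8-1, 42.8-fold (37.1 to 49.6) higher, and at 4.47 and 747 CPM in Col-0. In both genes the lsm8-1 library with NaCl lay above both GM libraries and below Col-0 with NaCl. RD29B, an ABA-dependent hydrophilic protein, stood at 0.890 and 37.3 CPM in lsm8-1 and 1.22 and 143 CPM in Col-0, and its neighbour RD29A, which has DRE elements, at 204 and 1970.3 CPM in lsm8-1 and 353 and 5433 CPM in Col-0. KIN1 was 32.8-fold (30.0 to 35.8) higher in lsm8-1, at 16.4 and 538 CPM, whereas its near copy KIN2 was 2.53-fold (2.47 to 2.58) higher, at 395 and 997 CPM. Uniquely placed reads only were counted, so levels of such tandem copies depend on how well reads could be told apart.

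The 2 top genes of the list were lipid transfer proteins and not LEA proteins. LTP4 (AT5G59310) stood at 2.95 CPM on GM and 662 CPM with NaCl in lsm8-1 and at 0.928 and 629.7 CPM in Col-0, and its tandem copy LTP3 (AT5G59320) at 21.2 and 2915 CPM in lsm8-1 and 5.16 and 1671 CPM in Col-0. LTP4 had the highest log2 ratio of all genes compared, 7.39, and LTP3 the next, 7.04. EM1 and EM6, group 1 LEA proteins known from maturing seeds, stood at 0.191 and 41.2 CPM and 1.59 and 29.2 CPM in lsm8-1 and at 0.638 and 20.9 CPM and 3.80 and 34.2 CPM in Col-0. EM1, EM6 and SAG21, a LEA protein of senescing leaves, were the 3 of 22 genes with a larger ratio in lsm8-1 than in Col-0. Of the seed markers, the oleosins OLEO1 and OLEO2 were also higher, from 2.64 to 8.04 and from 6.005 to 20.4 CPM, while CRU3 and SESA4, a storage globulin and an albumin, had at most 8 reads in either library. At the low end of the list, COR47 and COR15B stayed inside 2-fold in lsm8-1 with log2 0.98 and 0.84, but reached 1.97 and 1.65 in Col-0.

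**Figure D2:**
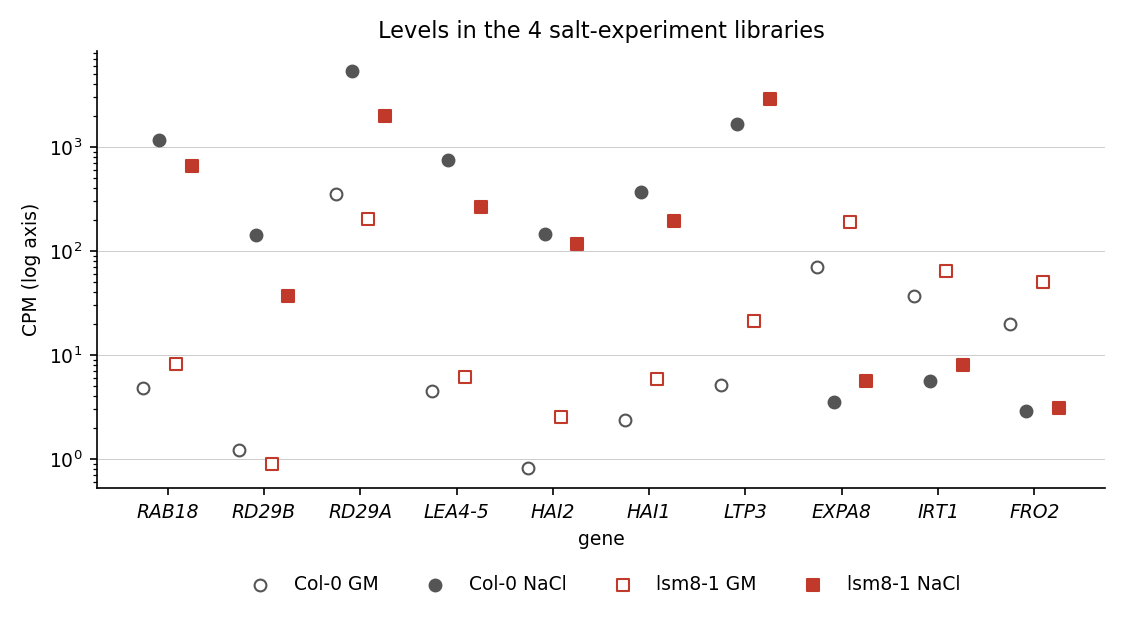
Levels of 10 genes in the 4 libraries of the salt experiment, as CPM on a log axis, 1 library a point; circles are Col-0, squares lsm8-1, open symbols GM and filled symbols NaCl. RAB18, RD29B, RD29A, LEA4-5, HAI2, HAI1 and LTP3 are higher with NaCl in both genotypes, and EXPA8, IRT1 and FRO2 are lower.

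All 22 compared stress transcription factors were at least 2-fold higher in lsm8-1, with a median of 3.23, or 2.15 with a pseudocount of 5 CPM in place of 1. Members low on GM, such as MYB41 and the CBF genes, were compared through the NaCl library alone. Here too the count holds no support of its own for the direction. MYB41, a regulator of cutin and suberin genes, stood at 0.572 CPM on GM and 35.9 CPM with NaCl in lsm8-1 and at 1.19 and 17.59 CPM in Col-0. The zinc finger repressors ZAT12 and ZAT10 stood at 9.75 and 218 CPM and at 5.97 and 122 CPM in lsm8-1, with 7.22 and 115 CPM and 6.09 and 125 CPM in Col-0. The NAC factors RD26, NAC019 and NAC055, which act in ABA and jasmonate responses, had log2 ratios of 3.96, 3.75 and 3.44. The homeobox factors HB-7 and HB-12, which restrain growth in drought, had 3.14 and 2.97, and AFP1, a protein that binds ABI5, had 3.78. The cold regulators CBF1, CBF2 and CBF3 were low on GM, at 0.286, 0.985 and 0.921 CPM, and stood at 13.5, 14.7 and 12.9 CPM with NaCl. DREB2A, the main DRE-binding factor of drought and salt, stood at 4.64 and 35.8 CPM in lsm8-1.

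Of 12 compared osmolyte genes 5 were higher and 1 lower, where 10.7% of all genes compared were higher and 7.29% lower. GOLS2, a galactinol synthase for raffinose, stood at 2.41 CPM on GM and 89.3 CPM with NaCl in lsm8-1 and at 0.580 and 166 CPM in Col-0, and GOLS4 at 8.77 and 58.9 CPM in lsm8-1 and 2.35 and 161 CPM in Col-0. P5CS1, the first and limiting enzyme of proline synthesis, stood at 2.03 and 15.7 CPM in lsm8-1, 7.70-fold (5.93 to 10.14) higher. P5CS2 and P5CDH, a proline breakdown enzyme, were just past the threshold at log2 1.06 and 1.02, and PRODH1, the proline dehydrogenase, lay within 2-fold at -0.60. DIN10, a raffinose synthase of dark-treated leaves, was the lower gene, at 17.7 and 5.06 CPM.

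Sodium and potassium transport had a median of -0.06, with 2 of 18 compared genes higher and 3 lower. Over all genes compared the shares were 10.7% and 7.29%, so the higher count was near the share of all genes. SOS1, the plasma membrane Na+/H+ antiporter, and its kinase SOS2 stood at 24.3 and 27.9 CPM and at 7.498 and 7.37 CPM in lsm8-1, both within 2-fold. HKT1, which takes sodium back from the xylem, stood at 11.4 CPM on GM and 1.66 CPM with NaCl in lsm8-1, 6.91-fold (5.19 to 9.35) lower, and at 9.37 and 1.67 CPM in Col-0. SKOR, which loads potassium into the xylem of roots, stood at 5.15 and 1.60 CPM in lsm8-1, and AHA2, a proton pump, at 278 and 138 CPM. GORK, the potassium release channel of guard cells, and the vacuolar antiporter NHX2 were the higher genes, at log2 1.22 and 1.04.

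Of 16 compared aquaporins 8 were at least 2-fold lower and none higher, with a median of -0.99. TIP2;1, a water channel of the vacuole membrane, stood at 1703 CPM on GM and 244 CPM with NaCl in lsm8-1, 6.98-fold (6.82 to 7.15) lower, and at 1285 and 130.2 CPM in Col-0. TIP2;3, TIP1;2 and TIP2;2 followed at log2 -2.01, -1.87 and -1.53, and PIP1;5 was the lowest plasma membrane channel at -1.28. PIP2;5 alone lay on the higher side by more than 0.5, at 0.96.

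Anthocyanin genes were higher together. Of 15 compared flavonoid and anthocyanin genes 12 were at least 2-fold higher in lsm8-1 and none lower, with a median of 2.62 against 1.00 in Col-0. The median in lsm8-1 was 1.42 with a pseudocount of 5 CPM and 1.56 with no minimum level. The MYB regulators PAP1 and PAP2 stood at 3.40 and 104 CPM and at 0.349 and 24.5 CPM in lsm8-1, and at 0.725 and 86.7 CPM and 0.116 and 21.9 CPM in Col-0. DFR, dihydroflavonol reductase, stood at 10.2 CPM on GM and 239 CPM with NaCl in lsm8-1, 23.49-fold (21.0 to 26.3) higher, and at 2.47 and 24.0 CPM in Col-0. The glycosyltransferases 5GT and UF3GT stood at 7.24 and 153 CPM and at 3.56 and 80.6 CPM in lsm8-1, with 3.45 and 24.8 CPM and 0.638 and 10.6 CPM in Col-0. CHS, the entry enzyme of the pathway, was 2.199-fold (2.15 to 2.25) higher at 293 and 645 CPM, and FLS1 and MYB12 of the flavonol branch lay within 2-fold at log2 0.05 and -0.10. The ratio was larger in lsm8-1 than in Col-0 for 10 of the 15 genes, and that difference was not tested.

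Of 11 reporters of mitochondrial stress 10 were at least 2-fold higher, with a median of 1.55. AOX1D, an alternative oxidase, stood at 0.413 CPM on GM and 68.3 CPM with NaCl in lsm8-1, 165-fold (96.5 to 311) higher, and at 0.174 and 11.6 CPM in Col-0, while AOX1A stood at 345 and 805 CPM in lsm8-1 and 41.4 and 256 CPM in Col-0. OM66, an outer membrane ATPase, and NDB4, an external NADH dehydrogenase, had log2 4.32 and 2.895. Of 9 compared heat shock genes 7 were higher, with a median of 1.68 against 2.88 in Col-0; with a pseudocount of 5 CPM it was 0.97 in lsm8-1, under 2-fold. The factors HSFA6B and HSFA6A led with 4.78 and 3.97, and the small heat shock protein HSP22 stood at 0.318 and 12.4 CPM in lsm8-1 and at 0.0580 and 48.6 CPM in Col-0. Of 7 compared genes of senescence and sugar starvation 5 were higher. SWEET15, a sucrose exporter of senescing leaves, stood at 3.08 CPM on GM and 194 CPM with NaCl in lsm8-1, 63.0-fold (51.6 to 77.9) higher, and the senescence NAC factors NAP and ORE1 had log2 2.28 and 1.81. SAG12, the protease of late senescence, had no read in either lsm8-1 library; the floor of 3 counts is 0.0953 CPM on GM and 0.0903 CPM with NaCl.

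Of 15 compared jasmonate genes 7 were higher and none lower, where 10.7% of all genes compared were higher and 7.29% lower. TAT3, a tyrosine aminotransferase, and VSP2, a storage protein, had log2 3.30 and 2.61, and JAZ1, a repressor of the pathway, 2.31. AOC1, allene oxide cyclase, stood at 27.8 CPM on GM and 154 CPM with NaCl in lsm8-1 and at 28.8 and 40.1 CPM in Col-0. Of 7 compared genes of salicylic acid defence 4 were higher and PR5 was lower, at 5.31 and 1.23 CPM. FMO1, which makes N-hydroxypipecolic acid, and the regulator SARD1 had 2.31 and 2.17, while PR1, the classic marker, had 4 reads on GM and 2 with NaCl. Of 13 compared suberin and wax genes 6 were higher and none lower. KCS2, a fatty acid elongase, led at 26.9 and 134 CPM in lsm8-1, and ABCG6, a half-size suberin transporter, followed at 18.8 and 55.2 CPM. The ratio was smaller in lsm8-1 than in Col-0 for each of the 13 genes, with medians of 0.86 and 1.62. Of 8 compared gibberellin genes 3 were higher, GA2OX2 and GA2OX6, which inactivate the hormone, and the repressor RGL3, at log2 1.58, 1.46 and 1.17.

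**Figure D3:**
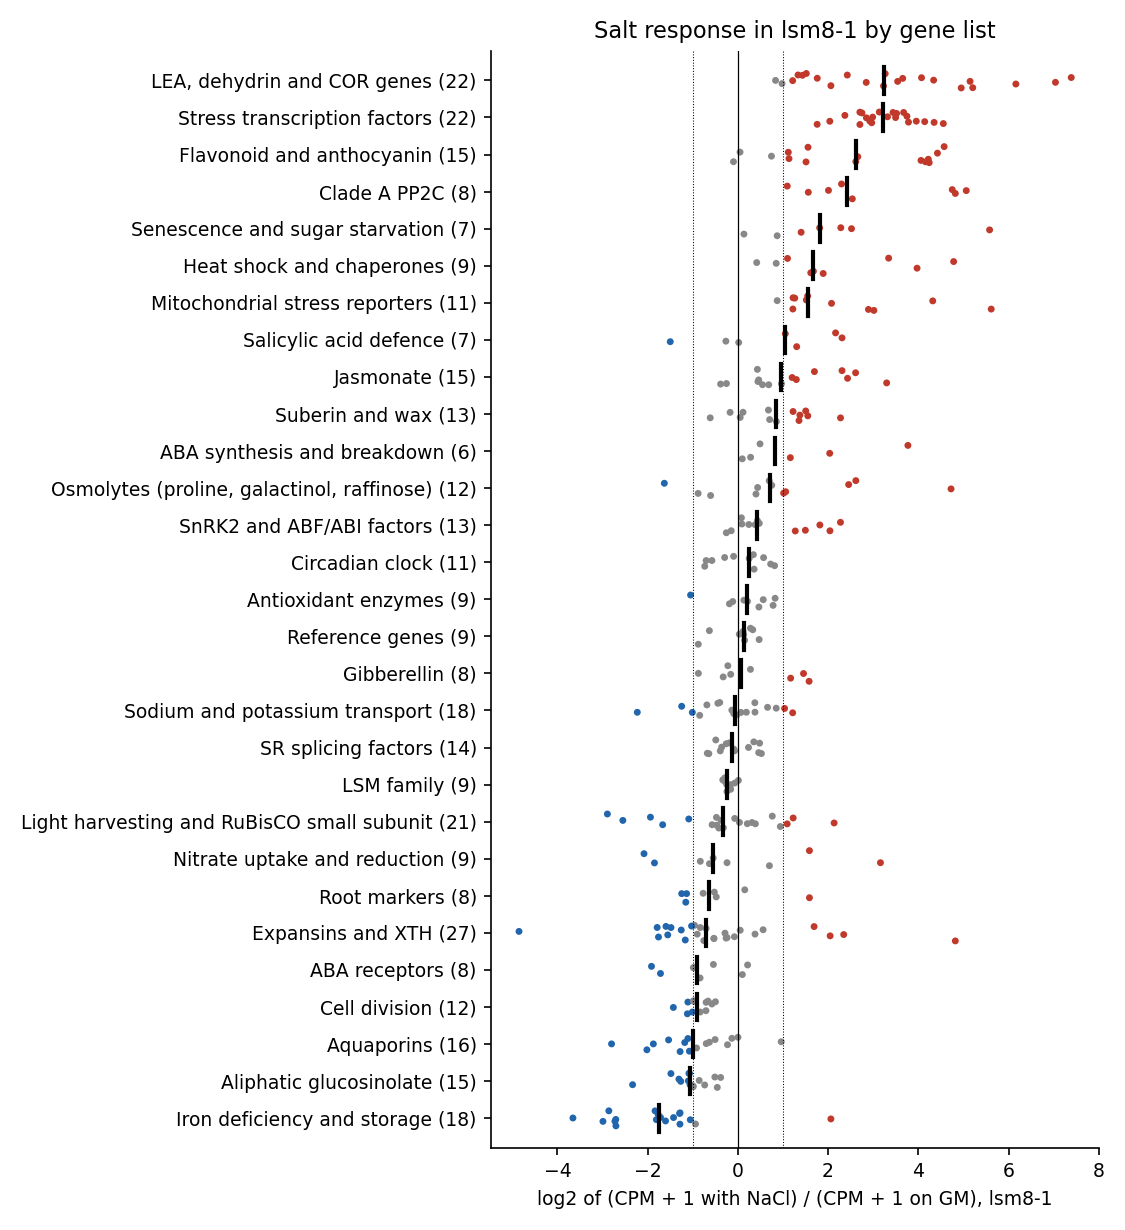
Each point is 1 compared gene of a list, placed by its log2 ratio of CPM + 1 with NaCl over GM in lsm8-1; the number after a list name is its count of compared genes and the black bar its median. Dotted lines mark 2-fold, red points are at least 2-fold higher and blue points at least 2-fold lower; medians run from 3.25 for LEA, dehydrin and COR genes to -1.74 for iron deficiency and storage.

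Genes of iron uptake were the lowest of all lists. Of 18 compared genes of iron deficiency and storage 16 were at least 2-fold lower with NaCl in lsm8-1 and 1 was higher, with a median of -1.74. FRO2, the ferric reductase of the root surface, stood at 50.2 CPM on GM and 3.07 CPM with NaCl in lsm8-1, 16.4-fold (13.4 to 20.2) lower, and at 20.1 and 2.86 CPM in Col-0. IRT1, the iron carrier beside it, stood at 64.3 CPM on GM and 8.01 CPM with NaCl in lsm8-1, 8.03-fold (7.06 to 9.16) lower, and at 37.0 and 5.59 CPM in Col-0. Both genes were higher on GM in lsm8-1 than in Col-0, and the NaCl libraries of the genotypes lay closer together. The bHLH factors that switch on uptake, BHLH38, BHLH39, BHLH100 and BHLH101, had log2 ratios of -1.83, -2.72, -2.70 and -1.28, and their partner FIT -0.94. The peptides IMA1, IMA2 and IMA3, which signal iron need in shoots and roots, had -1.81, -1.71 and -2.70; IMA1 and IMA2 are near copies. BTS, an E3 ligase that limits the response, stood at 582 and 191 CPM in lsm8-1 and at 221 and 152 CPM in Col-0. FER1, the ferritin that stores iron, was the higher gene, at 45.4 and 193 CPM in lsm8-1, whereas FER3 and FER4 were lower at -1.28 and -1.05. In Col-0 14 genes of the list were compared, and 10 were lower and 1 higher. FRO2, IRT1 and FIT act in roots, and the summed root markers were also lower with NaCl in lsm8-1, with 3 of 8 at least 2-fold lower and NRT2.1 higher; the part of this in the iron result was not tested.

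Of 9 compared genes of nitrate uptake and reduction 2 were lower, 2 higher and 5 within 2-fold. Among all genes compared 7.29% were lower and 10.7% higher. NIA1, a nitrate reductase, stood at 267 CPM on GM and 62.5 CPM with NaCl in lsm8-1, 4.28-fold (4.07 to 4.49) lower, and NRT1.5, which loads nitrate into the xylem, at 172 and 47.1 CPM. On the higher side, NRT1.8, which unloads nitrate from the xylem, stood at 5.21 and 54.6 CPM in lsm8-1 and at 27.2 and 64.5 CPM in Col-0, and NRT2.1, a high-affinity root carrier, at 15.03 and 47.2 CPM in lsm8-1 and 38.9 and 42.4 CPM in Col-0. All 15 compared aliphatic glucosinolate genes had a log2 ratio below 0, and 8 were at least 2-fold lower while 7 lay within 2-fold, with a median of -1.06. MAM3, a chain elongation enzyme, stood at 116 and 22.3 CPM in lsm8-1, 5.22-fold (4.82 to 5.65) lower, and at 79.6 and 2.502 CPM in Col-0. CYP79F2 and CYP79F1, which open the core pathway, had -1.48 and -1.08, and the regulators MYB28 and MYB29 lay within 2-fold at -0.99 and -0.73.

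Of 27 compared expansins and xyloglucan transglucosylases (XTH), which loosen cell walls, 9 were lower, 4 higher and 14 within 2-fold. EXPA8 (AT2G40610) stood at 191 CPM on GM and 5.66 CPM with NaCl in lsm8-1, 33.7-fold (29.2 to 39.2) lower, and at 70.8 and 3.50 CPM in Col-0, so that both NaCl libraries lay under both GM libraries. XTH23 went the other way, at 5.37 and 179 CPM in lsm8-1, 33.3-fold (28.6 to 39.1) higher, as did the touch-induced XTH22 at 42.3 and 219 CPM. XTH8 and XTH4 were among the lower genes at log2 -1.79 and -1.76. All 12 compared cell division genes had a ratio below 0 and 8 lay within 2-fold, while 4 were at least 2-fold lower, PCNA1 of the replication fork at -1.43 and the B-type cyclins CYCB2;4, CYCB1;2 and CYCB1;1 at -1.12, -1.11 and -1.01.

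Of the 21 genes of light harvesting and the RuBisCO small subunit 3 were higher, 5 lower and 13 within 2-fold. Among all genes compared 10.7% were higher and 7.29% lower. The 4 genes of the RuBisCO small subunit were all lower in lsm8-1: RBCS2B stood at 5931 CPM on GM and 799 CPM with NaCl, RBCS1B at 5203 and 889 CPM, RBCS3B at 2174 and 567 CPM and RBCS1A at 6606 and 2082 CPM. In Col-0 they stood at 5538 and 596 CPM, 4630.2 and 676 CPM, 1528 and 475 CPM and 4352 and 2028 CPM. Light-harvesting genes spread both ways, from LHCB1.1 at log2 2.13 to LHCB1.2 at -1.09. These 2 are near-identical tandem copies, and how unique reads fell between them is uncertain. The other higher genes of the list were AT2G05100 and AT2G05070, at 1.23 and 1.09. LHCB3 and LHCA2, single-copy antenna genes at 0.39 and -0.07, were among the 13 within 2-fold. The list as a whole had a median of -0.32.

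Some lists held no gene past 2-fold in lsm8-1. Over all genes compared 10.7% were higher and 7.29% lower, so an absence in lists this short says little about them. None of the 11 compared clock genes passed, with log2 from -0.73 for CHE to 0.82 for ELF4; the time of day of sampling is not stated. None of the 9 compared LSM genes passed, from -0.33 for LSM2 to 0.01 for LSM3A, and none of 14 SR splicing factors, from -0.68 for RSZ22A to 0.52 for SR30. The 9 compared reference genes had a median of 0.13, with ACT2 lowest at -0.88. Among 9 antioxidant enzymes the copper/zinc superoxide dismutase CSD2 alone passed, lower at 27.7 and 12.9 CPM.

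Beyond the lists, the genes at the top of the ranking were mixed in kind. AT3G02480, annotated as a LEA family protein, stood at 25.5 CPM on GM and 1899.5 CPM with NaCl in lsm8-1, 74.4-fold (69.4 to 79.8) higher, and at 34.1 and 2065 CPM in Col-0. DIP2, annotated as an E3 ubiquitin ligase, CWINV5, a cell wall invertase, and BGLU27, a beta-glucosidase, had log2 ratios of 5.68, 5.47 and 5.16. AT2G37870, a lipid transfer-like protein, stood at 9.69 and 474 CPM in lsm8-1 and at 0.957 and 439 CPM in Col-0. The remaining genes of the top 15 were AT1G80130, AT3G56275 and AT3G03341, annotated as a TPR-like, an unnamed and a cold-regulated product, at 5.22, 5.16 and 5.15. At the bottom, AT1G26250, annotated as a proline-rich extensin-like protein, stood at 109 CPM on GM and 6.38 CPM with NaCl in lsm8-1, 17.01-fold (14.8 to 19.6) lower, and at 311 and 4.89 CPM in Col-0. AT2G27402 stood at 103 and 5.99 CPM in lsm8-1 and at 153 and 11.8 CPM in Col-0. GER3, a germin-like protein, stood at 4061 and 350.4 CPM in lsm8-1, 11.6-fold (11.4 to 11.8) lower, and GASA6, a gibberellin-regulated peptide, at 346 and 35.7 CPM. GSTF14, AT3G01260, AT5G46890, AT5G46900, AT5G02760, MSRB6, FRO6, AT3G21460 and CYP82C4 completed the lowest 15, at -3.63 to -2.99. AT5G46890 and AT5G46900 are near copies. Without a stated strand, reads of a gene on the opposite strand cannot be told apart from those of the gene it overlaps. Such overlaps held for BGLU23, which carried most of the root marker sum, and for SKOR among the root markers. In the ABA, protective and solute groups they held for RAB18, COR15B, ABA2, PYL7, ABI1, SNRK2.3, ABF3, P5CS1, P5CS2, P5CDH, DIN10, GOLS4, DREB2A, AFP1 and TIP2;1. Elsewhere they held for CHS, 5GT, SARD1, KCS2, OLEO1, OLEO2, LHCB3, BHLH38, BHLH101, IMA3, FER1, NRT1.5, NRT1.8, EXPA7, RS2Z32, RS2Z33, CWINV5, AT3G03341 and AT5G02760.

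The same genes were read in Col-0, whose 2 libraries are not shared with this comparison. There 14813 genes were compared, 1577 were at least 2-fold higher (10.6%) and 1223 lower (8.26%), and at 4-fold 4.1% were higher and 1.65% lower. Of the higher genes 1188 were shared, 75.5% of those of lsm8-1 and 75.3% of those of Col-0. Of the lower genes 713 were shared, 66.6% of those of lsm8-1 and 58.3% of those of Col-0. Among called genes of lsm8-1 that were compared in Col-0 too, 1463 of 1482 higher genes and 1033 of 1036 lower genes had the same sign there. Across the 14191 genes compared in both, Pearson's r was 0.90 and Spearman's rho 0.87, as a description across genes, which are not independent replicates. For 96.5% of them the log2 ratios differed by less than 1. The median of the shared higher genes was 1.84 in lsm8-1 and 1.94 in Col-0, and 700 of the 1188 had the larger ratio in Col-0.

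Of 15308 genes at 5 CPM in any of the 4 libraries, 441 had a log2 ratio higher by at least 1 in lsm8-1 than in Col-0 and 197 had one lower by at least 1. GLIP1, a defence lipase, stood at 0.254 CPM on GM and 6.95 CPM with NaCl in lsm8-1 and at 0.522 and 0.389 CPM in Col-0. AGP22, an arabinogalactan protein, stood at 10.7 and 10.9 CPM in lsm8-1 and 26.3 and 3.002 CPM in Col-0, and EXT13, a wall extensin, at 60.5 and 26.4 CPM in lsm8-1 and 36.4 and 1.22 CPM in Col-0. In these 2 wall genes the lsm8-1 library with NaCl stayed well above Col-0 with NaCl. AT3G25573 stood at 0.191 and 19.4 CPM in lsm8-1 and 0 and 1.501 CPM in Col-0. On the other side, AT2G18193, annotated as a nucleoside triphosphate hydrolase, stood at 179 and 357 CPM in lsm8-1 and 5.11 and 114 CPM in Col-0, already high on GM in the mutant. GOLS4, named above, and AT4G12735 at 22.5 and 131 CPM in lsm8-1 and 0.203 and 33.2 CPM in Col-0 had the same pattern of a higher GM level in lsm8-1. AT2G22590, a glycosyltransferase, stood at 4.67 and 5.51 CPM in lsm8-1 and 3.16 and 41.0 CPM in Col-0, and WSD1, a wax ester synthase, at 1.81 and 5.03 CPM in lsm8-1 and 0.464 and 16.01 CPM in Col-0. AT1G24580, a RING/U-box protein, stood at 3.43 and 7.31 CPM in lsm8-1 and 1.799 and 27.4 CPM in Col-0. None of these differences could be tested with 1 library a group.

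**Figure D4:**
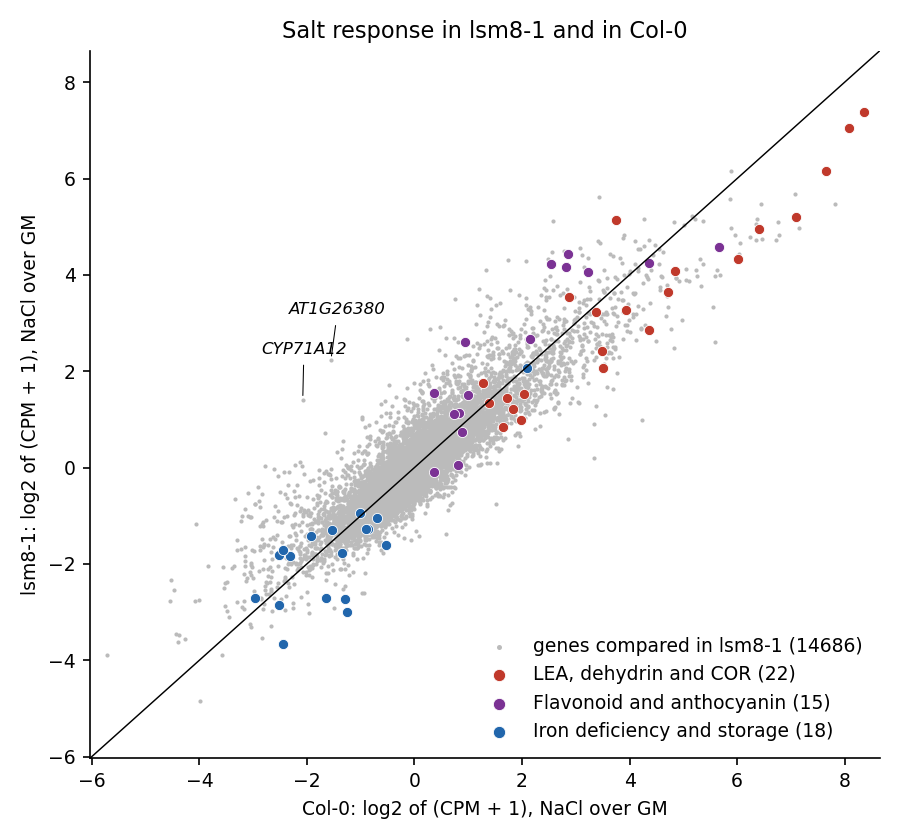
Each grey point is 1 of the 14686 genes compared in lsm8-1, with its log2 ratio of CPM + 1 (NaCl over GM) in Col-0 on the x axis and in lsm8-1 on the y axis; the line marks equal ratios. Most LEA, dehydrin and COR genes (red) lie at or under the line, flavonoid and anthocyanin genes (purple) more often above it, and AT1G26380 and CYP71A12 are higher in lsm8-1 and lower in Col-0.

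The cold response of the same mutant (24 h at 4 °C in soil against 20 °C) was read beside it. There 13988 genes were compared, with 1662 at least 2-fold higher (11.9%) and 1222 lower (8.74%), and at 4-fold 2.85% were higher and 1.81% lower. Of the 1574 genes higher in salt 876 were compared in the cold and 372 were higher there, 23.63% of the salt list and 22.4% of the cold list. Of the 1071 lower genes 868 were compared in the cold and 212 were lower there, 19.8% of the salt list and 17.3% of the cold list. Fewer called genes could thus be followed in the cold than in Col-0. Pearson's r across 11726 genes compared in both was 0.31, as a description. The LEA, dehydrin and COR list had a median of 3.57 in the cold, near its 3.25 in salt. The iron list had 0.03, the heat shock list 0.20 and the clock list 1.79. These cold medians are over the members compared in salt, with no minimum level in the cold libraries. The pseudocount draws members low in soil towards no change, so a small median does not show that a list was unresponsive. These plants grew in soil, under 40 µmol m-2 s-1 at 4 °C and 90 µmol m-2 s-1 at 20 °C. Light and temperature thus cannot be told apart in the cold comparison, and the 2 stresses are not matched.

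Reads of the organelle genomes were a larger share with NaCl in lsm8-1. Chloroplast genes took 0.109% of reads on GM and 0.205% with NaCl, and mitochondrial genes 0.0791% and 0.113%. In Col-0 the shares were 0.0590% and 0.0506% for the chloroplast and 0.0225% and 0.0227% for the mitochondrion. Of 48 compared chloroplast genes 13 were at least 2-fold higher in lsm8-1 and none lower, where 10.7% of all genes compared were higher and 7.29% lower. The median log2 ratio of the chloroplast genes was 0.74. How organelle RNA entered the libraries is not stated, and its part was not tested.

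The deposited salt tables count reads per transcript model, so the share of a locus's reads on each model could be followed. For 2534 loci with several models and at least 100 reads in both lsm8-1 libraries, the model most read on GM was taken. Its share moved by 20 percentage points or more in 28 loci (1.1%), lower with NaCl in 22 and higher in 6. Since the model was chosen by its share on GM, the split by direction is partly set by that choice. The median absolute move was 2.15 points. In Col-0 the same models moved by 20 points or more in 19 of 2435 loci (0.78%), and in lsm8-1 25 of these loci did. The median move over these loci was 1.61 points in Col-0 and 2.09 in lsm8-1. The model was chosen on the lsm8-1 GM library alone, which can enlarge the moves in lsm8-1 but not in Col-0. The genotypes are thus not compared like for like. The count in lsm8-1 depends on depth: with at least 50 reads it was 93 of 3549 loci, and with at least 300 reads 4 of 1037.

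AFB4, an auxin receptor, moved furthest: model 2 held 90.2% of 112 reads on GM (Wilson 95% interval 83.3 to 94.4%) and 50.2% of 279 reads with NaCl (44.3 to 56.0%). In Col-0 the shares were 87.2% and 53.1%. CHLM, a methyltransferase of chlorophyll synthesis, rested on more reads: model 2 held 56.0% of 1915 reads on GM and 29.2% of 918 with NaCl, and in Col-0 36.2% and 21.1%. AT2G47640 model 1 stood at 41.0% and 11.1% in lsm8-1 and at 25.9% and 29.6% in Col-0. AT1G22180 model 3 stood at 73.3% and 43.9% in lsm8-1 and at 26.5% and 25.7% in Col-0. ARV1 model 1 stood at 50.4% and 78.0% in lsm8-1 and at 98.4% and 93.2% in Col-0, and AT4G39270 model 2 at 54.0% and 28.0% in lsm8-1 and at 25.9% and 25.9% in Col-0. In these last 3 loci the interval of lsm8-1 on GM did not overlap those of the Col-0 libraries, while for AT2G47640 it overlapped that of Col-0 with NaCl. The models were chosen on lsm8-1 GM and the loci by their move from that share. A GM share far from Col-0 is thus partly set by the choice, and no difference between the genotypes was tested. Of the 25 shifted loci with 100 reads in Col-0 too, 14 moved in the same direction in Col-0, and 2 by 20 points or more. AFB4 is not among the 25, since it had 94 reads in Col-0 on GM. The share of all compared loci with the same direction in both genotypes is not given here, so the 14 have nothing to stand against.

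**Figure D5:**
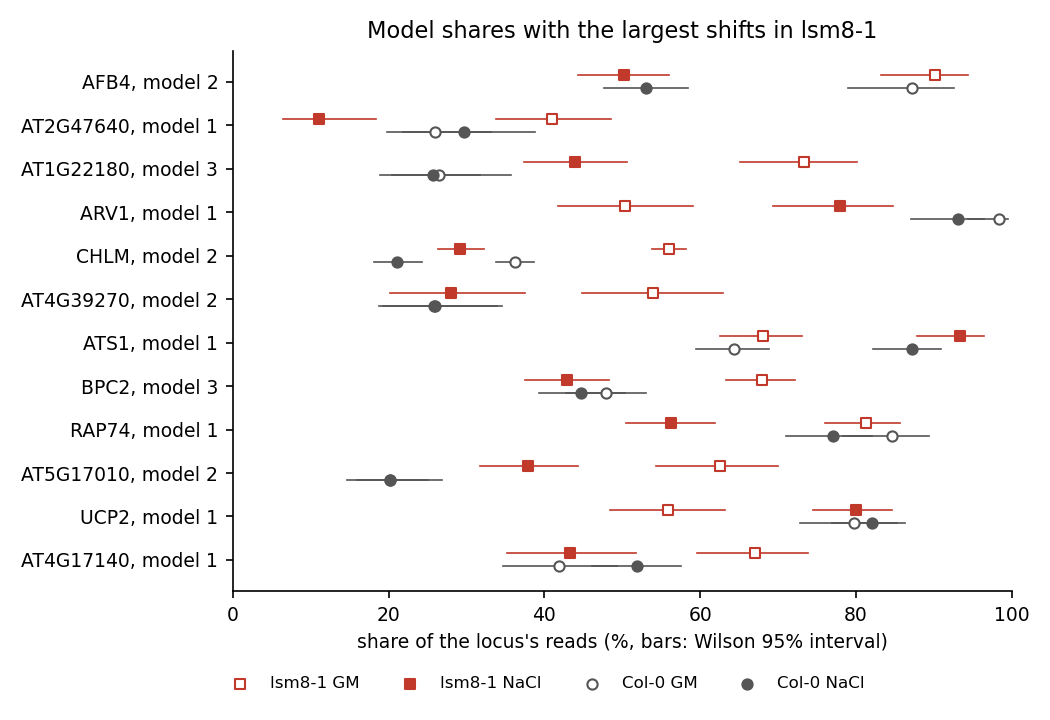
Share of a locus's reads on the model most read on GM, in %, for the 12 loci with the largest move in lsm8-1; squares are lsm8-1, circles Col-0, open symbols GM, filled symbols NaCl, and bars are Wilson 95% intervals for counting error. AFB4, CHLM and ATS1 move the same way in both genotypes, while for AT1G22180, AT4G39270 and AT5G17010 the Col-0 shares stay together.

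Among the 76 listed genes with enough reads, 3 SR splicing factors had the largest moves. SR34A model 3 held 51.3% of reads on GM and 70.6% with NaCl in lsm8-1, and 70.9% and 71.3% in Col-0. RS2Z33 model 1 held 45.3% and 63.3% in lsm8-1 and 63.5% and 59.8% in Col-0, whereas RS2Z32 model 2 was lower in both genotypes, at 56.5% and 41.2% in lsm8-1 and at 65.0% and 44.1% in Col-0. SR30 model 2 stood at 63.2% and 53.6% in lsm8-1 and at 79.0% and 70.7% in Col-0. OST1, the kinase above, had model 1 at 56.3% and 42.9% in lsm8-1 and at 55.8% and 40.1% in Col-0. How reads common to several models were assigned is not given in the sources used here, and these shares are those of the deposited counts.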

How the data were processed

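RNA-seq was measured in 8 libraries, 1 for each genotype and condition. Per the file headers, the deposited tables give a count of uniquely placed reads per transcript model and an RPKM value; the authors' RPKM was not used. The submitters' processing notes name TAIR 10, and for the aligner and counter nothing is stated there or in the labels. Deposited counts of models were summed per locus, and unlisted loci were set to 0. Libraries were scaled by TMM (edgeR 4.0.16 in R 4.3.3, used for scaling only) over the 4 salt libraries, with no gene-wise test. Genes at 5 CPM in at least 1 of the 2 lsm8-1 libraries were compared by log2 of CPM + 1, and a 2-fold difference was the size named. Folds in the text are ratios of CPM without the pseudocount. The floor of 3 counts was 0.0953 CPM on GM and 0.0903 CPM with NaCl in lsm8-1. DESeq2 1.42.0 size factors were an alternative scaling. Sequences, gene names and strand overlaps came from RefSeq's TAIR 10.1; the first digit of a locus code is its chromosome.

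Named genes were the members of 31 lists, the 15 highest and 15 lowest log2 ratios, the 6 largest differences from Col-0 on each side, and genes 2-fold apart in opposite directions in the genotypes. The members and lists were chosen with earlier results of these data known. The ratio, the 2-fold call and the counting interval were tried on simulated pairs of libraries with the real library factors. Scaling, summing of models, model shares, list medians and motif counts were not simulated. With 1 library a group, and with no label naming separate cultures, intervals cover counting error only, and PCR copies are not independent molecules.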

Additional observations from a re-analysis of the deposited data

Results flagged for a closer look

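In 2 genes the lsm8-1 and Col-0 libraries lay at least 2-fold apart in opposite directions. AT1G26380, annotated as a berberine bridge enzyme-like oxidase, had a log2 ratio of 2.23 in lsm8-1, at 1.27 CPM on GM and 9.66 CPM with NaCl, and of -1.55 in Col-0, at 10.097 and 2.78 CPM. CYP71A12, a cytochrome P450 of camalexin and indole defence compounds, had 1.41 in lsm8-1, at 7.31 CPM on GM and 21.1 CPM with NaCl, and -2.08 in Col-0, at 24.8 and 5.11 CPM. In both genes the GM library of Col-0 lay above that of lsm8-1. The difference between the genotypes was not tested, since each library stands alone.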

How the results depend on the processing

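Of 403 genes followed under 6 to 11 other settings each, 220 were at least 2-fold apart, and none of these 220 changed the sign of its ratio. Most settings could not have changed it. A pseudocount or minimum level leaves the sign as it is, and the scalings moved all ratios little. With a pseudocount of 5 in place of 1, 626 genes were lower in place of 1071, and 441 in place of 713 were lower in both genotypes. At 4-fold, 592 genes were higher and 127 lower, with 435 and 93 shared with Col-0. With at least 100 reads in each of the 4 libraries, chosen after seeing the data, 717 higher genes were shared. Model shares that moved by 20 points numbered 93 at 50 reads and 4 at 300 reads, and 248 moved by 10 points. The other counts over all genes stayed within 1.5 times those reported. List medians moved more. With a pseudocount of 5 the median of stress transcription factors was 2.15 in place of 3.23, of flavonoid genes 1.42 in place of 2.62, of heat shock genes 0.97 in place of 1.68 and of salicylic acid genes 0.69 in place of 1.05. With no minimum level the receptors had -0.18 in place of -0.90, and ABA synthesis had 0.28 in place of 0.83 over loci with 1 model. Single genes moved too, EM1 from 5.15 to 3.15 and GLIP1 from 2.66 to 1.19 with a pseudocount of 5. Of 220 named genes past 2-fold, 34 were inside it in at least 1 setting, all 34 with the pseudocount of 5 and 5 with total-count scaling. The median of all genes ran from -0.01 to 0.04 over the scalings. No paired analysis was possible because each group has 1 library with no replicate number, and for that reason no library could be left out. Genes under about 5 CPM are limited by depth.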

Other observations

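Genes that RefSeq names root hair specific are described here as a list chosen after values were seen. Of 19 such genes 8 reached 5 CPM in any salt library, and 6 of the 8 were at least 2-fold lower with NaCl in Col-0 but 1, RHS13, in lsm8-1. Their median log2 ratio was -1.95 in Col-0 and -0.20 in lsm8-1, and 6 of the 8 had a log2 ratio higher by at least 1 in lsm8-1 than in Col-0, against 2.88% of 15308 genes with such a difference in that direction. PRP1, a proline-rich wall protein, stood at 12.7 CPM on GM and 13.8 CPM with NaCl in lsm8-1, and at 7.66 and 0.973 CPM in Col-0. RHS18 stood at 6.83 and 5.93 CPM in lsm8-1 and at 6.76 and 0.334 CPM in Col-0, and RHS19 at 30.9 and 17.01 CPM in lsm8-1 and at 22.9 and 2.25 CPM in Col-0. RSH2 was an exception, higher in both genotypes at log2 2.74 in lsm8-1 and 2.89 in Col-0. Among listed wall genes, EXPA18 and EXPA7, expansins of root hairs, had 0.05 and 0.38 in lsm8-1 and -2.22 and -1.35 in Col-0. The part of the root share of the libraries in these values was not tested.

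Families were also grouped by their RefSeq product names after values were seen, and counts in lsm8-1 are given for some of them. Not all families leaned to 1 side. Of 58 compared lipid transfer proteins 18 were higher and 20 lower, and of 101 cytochromes P450 17 were higher and 8 lower. Of 37 compared WRKY factors 19 were at least 2-fold higher and none lower, and of 31 NAC factors 14 were higher and none lower. Of 38 histones 17 were lower and 2 higher, and of 297 ribosomal proteins 33 were lower and 2 higher. Of 24 SAUR proteins, which promote auxin-driven cell expansion, 12 were lower and 4 higher, and of 12 response regulators 6 were lower and none higher. Over all genes compared the shares were 10.7% higher and 7.29% lower.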
